A study of Mus musculus with 9 samples.

Results

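Long noncoding RNAs expressed in thioglycollate-elicited peritoneal exudate cells were described across 9 mouse RNA-seq samples. A row of the deposited gene table was a member if its biotype was lincRNA, antisense or processed_transcript and its FPKM (fragments scaled by gene length and by the reads of the sample) was at least 1 in at least 4 of the 9 samples. The members were thus chosen by their FPKM in both groups, and levels are given below as a description. Of 41096 rows in the table, 5669 had one of the 3 biotypes and 347 of those were members (6.12%), while 3018 were at 0 in all 9 samples. The members comprised 152 of 2841 lincRNA rows, 129 of 2120 antisense rows and 66 of 708 processed_transcript rows. A gene symbol was given for 308 of them, and the other 39 carried only an identifier.

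All mice lacked apolipoprotein E (APOE-/-), a background prone to high cholesterol and atherosclerosis. The control group (n = 5) received citrate buffer, and the diabetic group (n = 4) received streptozotocin (STZ) at 40 mg/kg, a toxin of insulin-producing beta cells. Injections were given on 5 consecutive days from 8 weeks of age, and western diet followed in both groups over 8 weeks. An injection of 1.5 mL of 3% thioglycollate in the last of these weeks recruited inflammatory cells to the peritoneum, and the exudate was washed out 3 days later with 10 mL PBS. The labels call the cells peritoneal macrophages but name no sort, and they do not say whether a sample is 1 mouse or a pool, so the tests see only how these samples vary, which may be technical.

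Long noncoding RNAs are transcripts with no known protein product. Some act in the nucleus, such as Neat1, the scaffold of paraspeckles, and Malat1, which sits in nuclear speckles. Others are hosts from whose introns small nucleolar RNAs (snoRNAs, guides of ribosomal RNA modification) or microRNAs are cut out, and antisense RNAs are read from the strand opposite a coding gene. For most members with a Gm or Rik name no function is established.

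Between 14156421 and 16169060 reads per sample fell in genes, and 277 to 306 members reached 1 FPKM in a given sample. The members held 0.354% to 0.5003% of the reads in control samples and 0.377% to 0.435% in diabetic samples. Macrophage markers were abundant, with a summed level of 7606 to 11465 FPKM in control and 6007 to 10101 FPKM in diabetic samples over 10 genes, of which 1 was lower and none higher. All 15 T cell markers were detected, and 14 of 15 were higher in diabetic samples, where their sum was 229 to 711 FPKM against 128 to 182 FPKM in control samples. The sum in diabetic 3 was 229 FPKM, the nearest of the diabetic samples to the controls. B cell markers summed to 540 to 1133 FPKM in control and 768 to 1901 FPKM in diabetic samples, with 3 of 9 tested genes higher. Neutrophil markers varied widely within both groups (70.3 to 1008 FPKM in control, 85.4 to 470 FPKM in diabetic samples), and of 5 tested genes limma and voom called none and none had an unadjusted p below 0.05. In such bulk samples fewer cells of a type and less RNA per cell cannot be told apart. Apoe was read at 135 to 373 FPKM, and since the labels do not give the deleted stretch this level does not check the genotype.

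Members were shorter and lower than coding genes. Their mean level over the 9 samples had a median of 2.22 FPKM and ran from 0.751 to 132.9 FPKM, against a median of 8.56 FPKM for the 9992 coding genes tested. Their median length was 1118 bases, against 3713.5 bases for coding genes. In all 9 samples 189 members reached 1 FPKM, and 31 did so in exactly 4. The 3 rows just inside the threshold were 2900005J15Rik, Gm43634 and Gm11944, whose fourth-highest values were 1.00036, 1.00626 and 1.00912 FPKM. The 3 just outside it were Gm13563 at 0.998 FPKM, 2500002B13Rik at 0.996 FPKM and Gm26737 at 0.995 FPKM. For 69 members (19.9%) the table's own description named a matching protein, so the biotype does not settle that such a row is noncoding.

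The most abundant member was 2410006H16Rik, a snoRNA host, with a mean of 132.9 FPKM. Its control samples read 96.7, 144, 125, 136 and 100.9 FPKM and its diabetic samples 165, 191, 89.1 and 148 FPKM. Diabetic 3 was the lowest of all 9 samples and the groups overlapped. Mir142hg, the host of a microRNA of blood cells, followed with a mean of 113.9 FPKM, and its log2 fold change of -0.37 (SE 0.25, limma adjusted p = 0.400) did not pass the test. Malat1 (50.3 FPKM), 4930455G09Rik (49.7 FPKM), Epb41l4aos (49.0 FPKM) and Gm28875 (47.0 FPKM) were also among the 10 highest. The other 4 were rows without a symbol, at 69.0, 60.03, 55.9 and 42.6 FPKM.

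Several of these abundant members had log2 fold changes near 0. Gm28875 had a log2 fold change of -0.01 (SE 0.19) and the unnamed chromosome 5 row of 55.9 FPKM one of 0.04 (SE 0.09). That row read 50.7 to 59.6 FPKM in control and 53.7 to 62.5 FPKM in diabetic samples. The unnamed chromosome 17 row of 69.0 FPKM varied most. It read 102, 14.2, 158, 42.0 and 209 FPKM in control and 43.0, 12.9, 14.8 and 24.9 FPKM in diabetic samples. The control values were spread far more widely than the diabetic ones and the groups overlapped. Its log2 fold change of -1.73 (SE 0.73, limma adjusted p = 0.202) did not pass.

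With limma on log2(FPKM + 1), 26 of 347 members differed between groups at an adjusted p below 0.05, 18 higher and 8 lower in diabetic samples. That is 7.49% of the members, against 4.76% of all 11193 genes tested. Over all genes 2.68% were called higher and 2.08% lower. The values of the 2 groups did not overlap for 35 members (10.1%, 22 above and 13 below), against 9.42% of all genes. Fold changes on this scale understate the change of low genes. The median log2 fold change of the members was 0.02 (quartiles -0.21 to 0.26), and that of all genes tested was -0.01 (quartiles -0.18 to 0.16). The members as a whole were thus centred where the other genes were, with a wider spread and a median SE of 0.186 against 0.137. By biotype, 9 lincRNA members were higher and 4 lower, 6 antisense members were higher and 3 lower, and 3 processed_transcript members were higher and 1 lower.

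**Figure D1:**
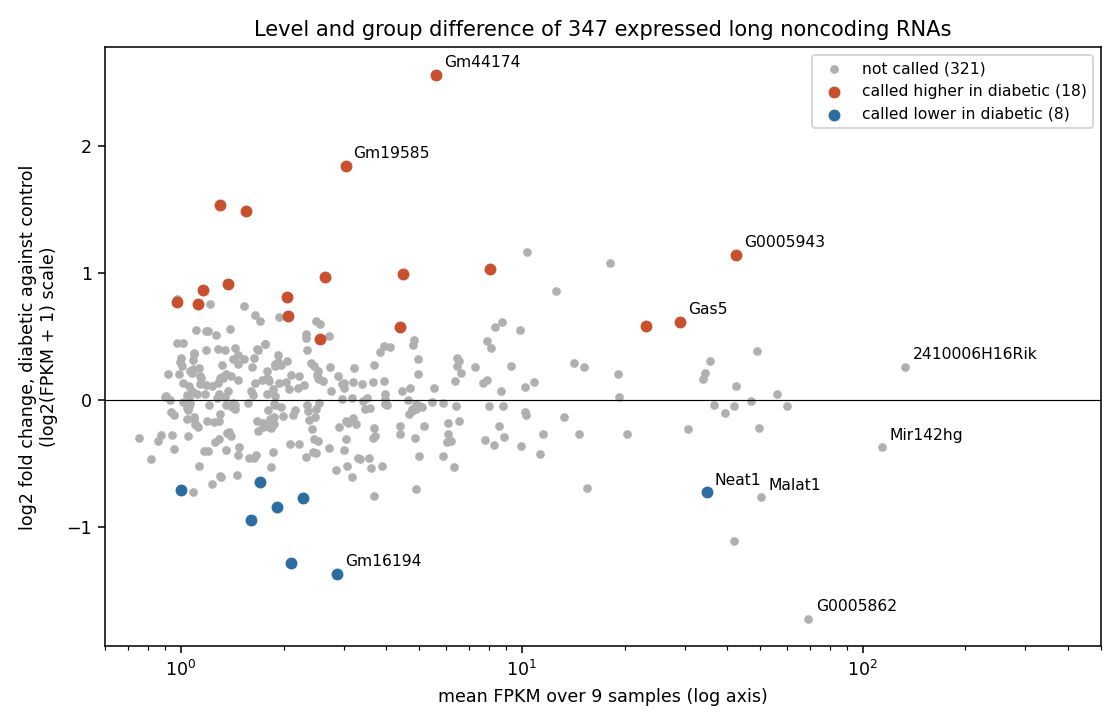
Mean FPKM over the 9 samples (horizontal, log axis) against the log2 fold change of diabetic against control on the log2(FPKM + 1) scale (vertical), 1 point per member. The 18 members called higher are red and the 8 called lower blue. Most called members lie at low levels, while Neat1, Gas5 and the unnamed G0005943 lie above 20 FPKM.

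Of the 26 called members, 6 had reached 1 FPKM in 1 group only, so their entry in the set already required a difference. These were 5830468F06Rik, A930024E05Rik, Gm16341, A630023P12Rik and Gm43388 among the higher and Gm20404 among the lower. Among the 339 members that reached 1 FPKM in both groups, 13 were higher and 7 lower (5.90%). Among the 189 that reached it in all 9 samples, 8 were higher and 1 lower (4.76%). The 4.76% called over all genes tested is no like comparison, since those genes needed 1 FPKM in only 4 samples of either group. The share of all genes under the conditions of the 339 or the 189 was not counted.

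The number of calls rested on single samples. Without diabetic 3 there were 29 higher and 19 lower members, and without diabetic 4 there were 6 and 2. Leaving out each of the 9 samples in turn kept 7 members called every time, 6 higher (Gm19585, the unnamed G0005943 and G0015775, Gm16341, 5830468F06Rik, A930024E05Rik) and 1 lower (1700101I11Rik). For Gm16341, 5830468F06Rik and A930024E05Rik, which entered the set through the diabetic samples alone, this is no independent sign of stability. Nor is it for Gm19585, where control 1 (1.81 FPKM) was the only control at 1 FPKM or more. That row met the threshold through its diabetic values. The genes tested were not chosen anew in these fits. Diabetic 3 lay nearest the control side in 14 of the 18 higher members and in 3 of the 8 lower ones. This was not particular to the members. On the first principal component of all genes tested, diabetic 3 lay at 1.44 and the other diabetic samples at 20.9 to 30.5. The controls lay at -23.5 to -11.2 on it. Relative to the control mean, the median of the 18 higher members on the log2(FPKM + 1) scale was 0.96, 1.06 and 1.14 in diabetic 1, 2 and 4 and 0.50 in diabetic 3. Diabetic 3 also had the lowest T cell marker sum of its group and a B cell marker sum of 768 FPKM, inside the control range, against 1516 to 1901 FPKM in the other diabetic samples. Its macrophage marker sum of 10101 FPKM was the highest of its group, where the others had 6007 to 8296 FPKM. The part of this cell content in the calls was not tested.

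**Figure D2:**
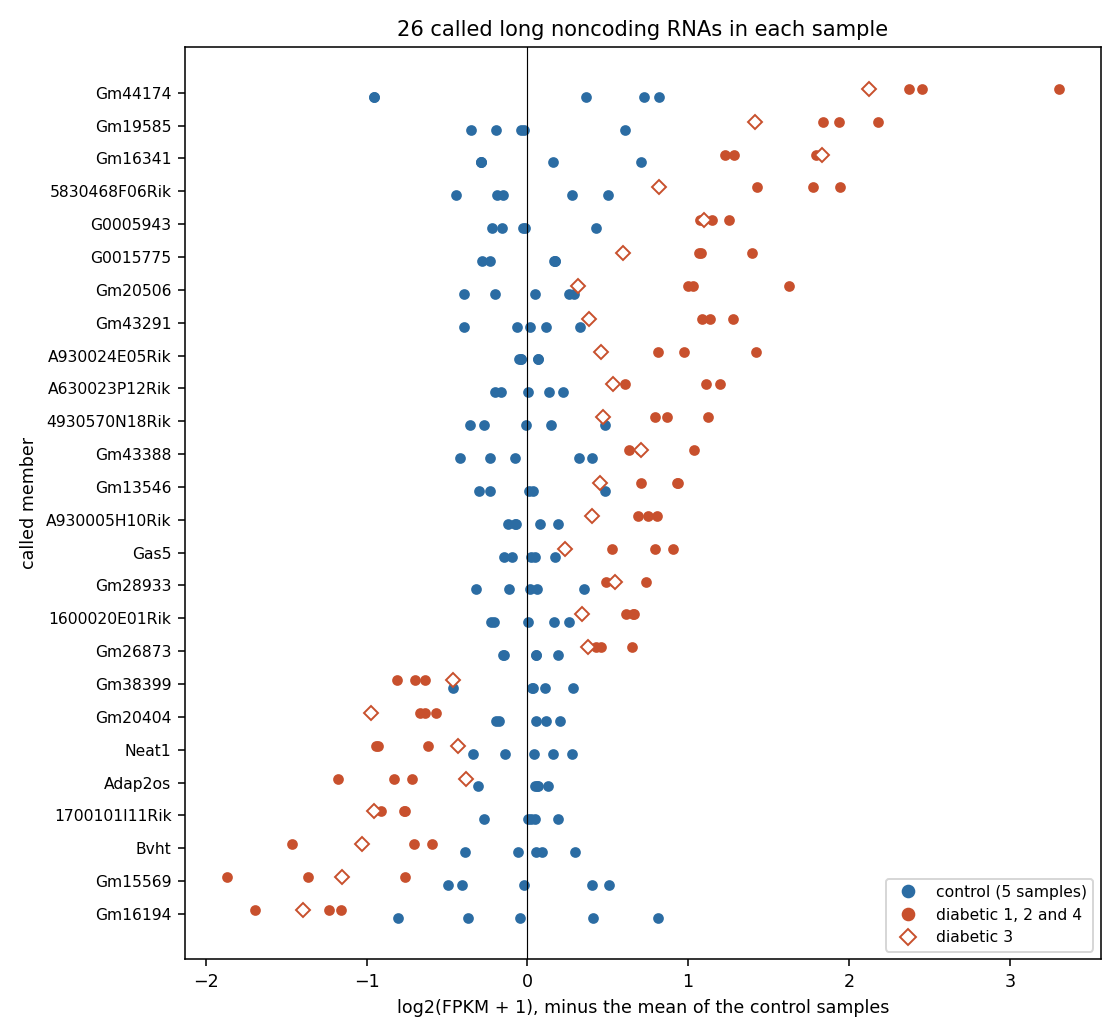
Each of the 26 called members in each sample, as log2(FPKM + 1) minus the mean of the 5 control samples (horizontal). Control samples are blue, diabetic 1, 2 and 4 red, and diabetic 3 an open diamond, which lies nearest the controls in 14 of the 18 higher members.

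Among nuclear RNAs, Neat1 (chromosome 19, 2890604 to 2911354, minus strand, as the table gives positions) was lower in diabetic samples. Control samples read 38.1, 33.1, 43.3, 51.3 and 47.2 FPKM and diabetic samples 27.1, 21.4, 30.9 and 21.7 FPKM. Every diabetic sample lay below every control sample, with a mean of 25.3 ± 4.59 FPKM (SD, n = 4) against 42.6 ± 7.21 FPKM (SD, n = 5). The log2 fold change was -0.73 (SE 0.15, limma adjusted p = 0.0247). The call was lost in 5 of the 9 fits that left out a sample. Across these 9 fits the adjusted p reached 0.0817 and the log2 fold change stayed between -0.83 and -0.66. The call was also lost with no filter on low genes and with a replicate block, where same-numbered samples were taken as pairs. Neat1 rested on 65987 reads in control and 31607 in diabetic samples over a length of 20751 bases, which makes it the member with the most reads. Its nearest coding gene, Frmd8, was 4171 bases away and had a log2 fold change of -0.04.

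Malat1, which lies on the same chromosome as Neat1, read 64.8, 43.1, 54.8, 61.7 and 83.7 FPKM in control and 34.2, 24.4, 35.0 and 50.9 FPKM in diabetic samples. Diabetic 4 lay inside the control range. Its log2 fold change of -0.77 (SE 0.22, limma adjusted p = 0.0738) was close to that of Neat1 but did not pass. Neat1 and Malat1 together took 25.4% to 32.7% of all member reads in control samples and 16.05% to 22.9% in diabetic samples, with no overlap. The other members together took 0.264% to 0.337% of the reads in genes in control and 0.291% to 0.348% in diabetic samples. Tug1, a further nuclear RNA, read 6.53 ± 0.776 FPKM (SD, n = 5) against 6.26 ± 0.405 FPKM (SD, n = 4). These 3 were the members found among a list of 20 nuclear, X inactivation and imprinted RNAs.

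**Figure D3:**
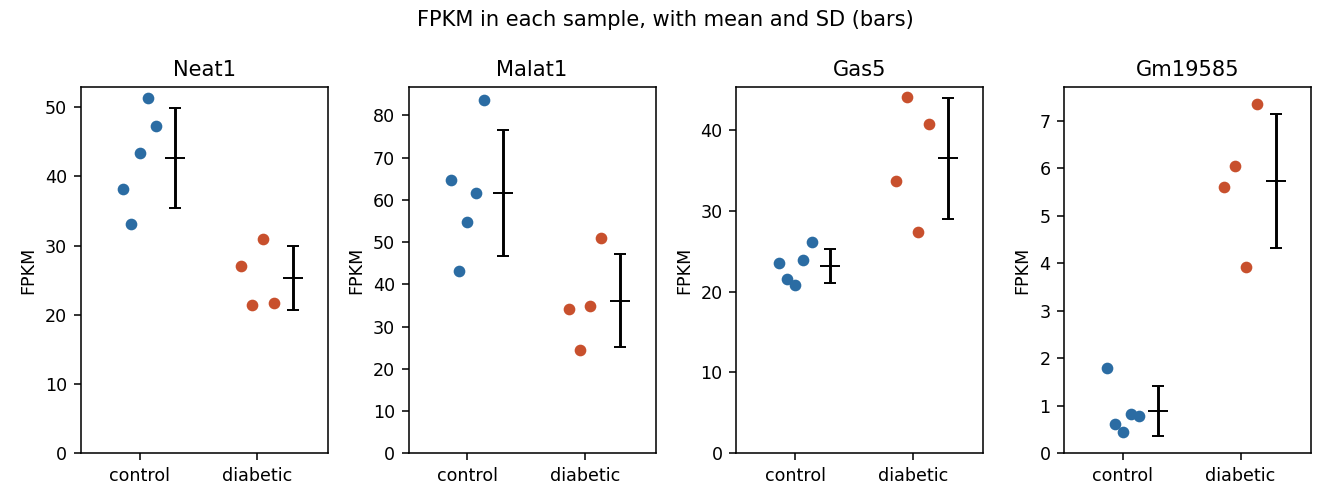
FPKM of Neat1, Malat1, Gas5 and Gm19585 in each sample, with the mean and SD as bars. The diabetic samples lie below all control samples for Neat1 and above all of them for Gas5 and Gm19585, while the Malat1 groups overlap.

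Among snoRNA hosts Gas5 (chromosome 1, 171932009 to 171936126, plus strand) was higher in diabetic samples. Control samples read 23.5, 21.6, 20.8, 23.9 and 26.1 FPKM and diabetic samples 33.7, 44.1, 27.4 and 40.7 FPKM. The groups did not overlap, although diabetic 3 (27.4 FPKM) lay just above the highest control. The log2 fold change was 0.61 (SE 0.14, limma adjusted p = 0.0320), and the call held in 2 of the 9 fits that left out a sample. It was also lost with values rescaled to TPM, with no filter on low genes and with a replicate block. Snhg1 (log2 fold change 0.58) and Snhg12 (0.61), hosts of further snoRNAs, each had a limma adjusted p of 0.0543. Snhg12 read 6.001 to 7.35 FPKM in control and 10.5, 14.7, 7.39 and 12.2 FPKM in diabetic samples, so diabetic 3 again stood closest to the controls.

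A snoRNA gene lay inside 18 members on the same strand. Of these 1 was called (5.56%, against 4.76% of all genes tested). A positive log2 fold change was found in 16 and a negative one in 2, against 179 and 168 of all 347 members. The median of the 18 was 0.26, against -0.01 over all genes tested. Under the alternatives 14 to 16 were positive. Snhg20 (-0.43) and Gm15832 (-0.52) were the negative pair. The median of the 18 relative to the control mean was 0.35, 0.53 and 0.30 in diabetic 1, 2 and 4 but -0.12 in diabetic 3, and the controls lay between -0.05 and 0.06. Without diabetic 3, 5 of the 18 were called higher, namely Gas5, Snhg1, Snhg12, AA465934 and an unnamed row. In that fit 13.8% of all members and 10.5% of all genes tested were called in either direction. On a list of 21 known hosts, 12 were members, all of them among the 18 above, and 11 of these 12 were positive. The mature snoRNAs were hardly measured by these libraries. The highest was Snord49a at a mean of 15.7 FPKM from 79 control and 77 diabetic reads, and most snoRNA rows inside members were at 0.

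**Figure D4:**
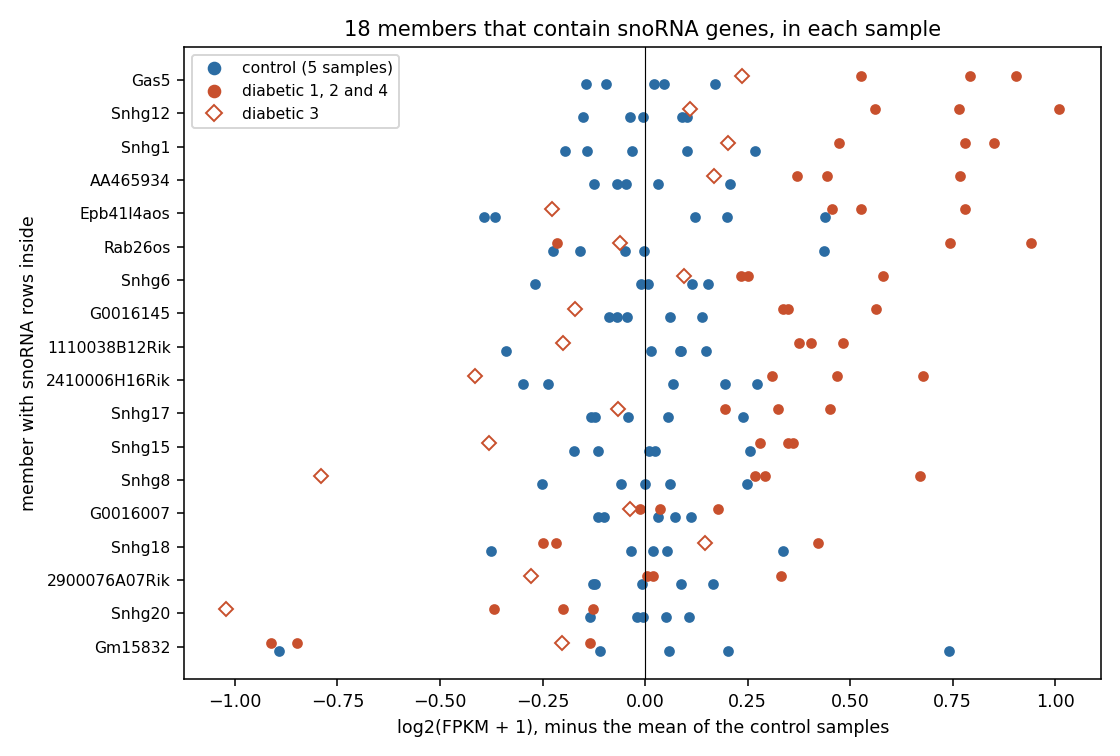
The 18 members that contain snoRNA genes, in each sample, as log2(FPKM + 1) minus the mean of the 5 control samples. Diabetic 1, 2 and 4 (red) lie to the right of all controls (blue) for Gas5, Snhg12 and Snhg1, whereas diabetic 3 (open diamonds) lies left of all controls for Snhg8, Snhg15 and Snhg20.

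The starts of host genes are shown because known snoRNA hosts often begin with a 5′ terminal oligopyrimidine tract, a C followed by a run of C and T that links transcripts to growth-dependent translation and turnover. Each line gives 10 bases before and 31 bases from a RefSeq start (build GRCm38.p6), 5′ to 3′, with the unbroken C and T run from the start in capitals.
Gas5 (chr1:161035156-161035196, plus strand): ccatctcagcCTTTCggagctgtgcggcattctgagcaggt
Snhg1 (chr19:8723477-8723517, plus strand): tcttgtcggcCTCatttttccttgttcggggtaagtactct
Snhg12 (chr4:132308668-132308708, plus strand): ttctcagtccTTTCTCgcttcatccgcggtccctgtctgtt
Snhg8 (chr3:123508306-123508346, minus strand): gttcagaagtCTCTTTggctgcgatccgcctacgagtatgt
Rab26os (chr17:24528241-24528281, plus strand): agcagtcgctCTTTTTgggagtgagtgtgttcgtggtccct
1110038B12Rik (chr17:34952438-34952478, minus strand): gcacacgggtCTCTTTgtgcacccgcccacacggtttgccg
2410006H16Rik (chr11:62602867-62602907, plus strand): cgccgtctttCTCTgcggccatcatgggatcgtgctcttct

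Of the 13 snoRNA hosts with a RefSeq start window, 4 began with C and at least 4 further pyrimidines (30.8%), namely Gas5, Snhg8, Rab26os and 1110038B12Rik. The same holds for 11 of 162 members with a window (6.79%) and for 813 of 27025 genes of the RefSeq table (3.01%). This search was added after the values had been seen, and a gene with several starts counts if any start fits. Gas5 and 1110038B12Rik each have another RefSeq start, not shown, that begins with G and lacks a run. All host starts not shown lack the tract, among them those of Snhg15, Snhg20 and AA465934, which begin with A or G. Among those 4 hosts Gas5 was called, while Snhg8 (log2 fold change 0.11), Rab26os (0.35) and 1110038B12Rik (0.27) were not. Snhg1 and Snhg12 lacked the tract as defined, with a run of 3 bases and a start with T.

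None of the 5 members on a list of 13 microRNA hosts was called by limma, none had an unadjusted p below 0.05, and voom called none. Limma called 4.76% of all genes tested, so a list this short may hold no call. The hosts were measured here and not the mature microRNAs, which are too short for such libraries. The mature sequences cut from the hosts are shown to mark which regulators these transcripts carry, with the seed (bases 2 to 8) in capitals, from RefSeq (build GRCm38.p6).
miR-142a-3p in Mir142hg (chr11:87756903-87756925, plus strand): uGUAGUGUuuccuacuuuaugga
miR-142a-5p in Mir142hg (chr11:87756867-87756887, plus strand): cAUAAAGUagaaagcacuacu
miR-223-3p in F630028O10Rik (chrX:96242884-96242905, plus strand): uGUCAGUUugucaaauacccca
miR-22-3p in Mir22hg (chr11:75463772-75463793, plus strand): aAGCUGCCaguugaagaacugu
miR-15a-5p in Dleu2 (chr14:61632075-61632096, minus strand): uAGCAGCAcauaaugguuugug
miR-16-5p in Dleu2 (chr14:61631936-61631957, minus strand): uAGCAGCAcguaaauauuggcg
miR-17-5p in Mir17hg (chr14:115043684-115043706, plus strand): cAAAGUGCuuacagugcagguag
miR-20a-5p in Mir17hg (chr14:115044183-115044205, plus strand): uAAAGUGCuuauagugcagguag
miR-19a-3p in Mir17hg (chr14:115044048-115044070, plus strand): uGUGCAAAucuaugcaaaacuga
miR-19b-3p in Mir17hg (chr14:115044358-115044380, plus strand): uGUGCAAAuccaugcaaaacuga

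The miR-15a and miR-16 sequences share a seed, as do miR-17 with miR-20a and miR-19a with miR-19b. Mir142hg read 139, 88.9, 139, 128 and 130 FPKM in control and 144, 93.0, 55.3 and 109 FPKM in diabetic samples, with the groups overlapping. F630028O10Rik, which holds the myeloid miR-223, read 7.61 to 18.2 FPKM in control and 13.4 to 20.2 FPKM in diabetic samples (log2 fold change 0.26). Mir22hg (-0.36), Dleu2 (-0.003) and Mir17hg (0.39, the host of a growth-promoting cluster) also did not pass. Dleu2 read 2.65 to 6.76 FPKM in control and 3.56 to 6.02 FPKM in diabetic samples.

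Of a list of 14 immune and macrophage RNAs 2, Mirt1 and Gm14005, the Morrbid locus that governs survival of short-lived myeloid cells, were members. Neither was called by limma (against 4.76% of all genes tested) or by voom, and neither had an unadjusted p below 0.05. Gm14005 read 0.465 to 2.31 FPKM in control and 0.596 to 1.22 FPKM in diabetic samples. Of 24 members with a name ending in os or as, which mark a partner on the opposite strand, 1 was called, Adap2os. That is 4.17%, against 4.76% of all genes tested. On a list of 11 stress and growth RNAs the 3 members were Neat1, Gas5 and Tug1.

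On the log2(FPKM + 1) scale the 2 largest rises had a T cell gene as the nearest coding gene. With a pseudocount of 0.1 or with voom, Gm16341 and 5830468F06Rik rose more than Gm19585. Gm44174, a lincRNA of 141 exonic bases (chromosome 6, 73719884 to 73740127, plus strand), read 0, 2.41, 1.49, 0 and 2.20 FPKM in control and 9.02, 9.61, 7.43 and 18.2 FPKM in diabetic samples. All 4 diabetic samples lay above all controls, and the row rested on 13 reads in control and 95 in diabetic samples. The log2 fold change was 2.57 (SE 0.43, limma adjusted p = 0.0154). The call was lost without diabetic 4 (limma adjusted p = 0.0509), with a pseudocount of 0.1 and with a replicate block. Gm44174 lies 264 bases from Cd8a on the same strand, and Cd8a, which encodes a co-receptor of cytotoxic T cells, had a log2 fold change of 2.60. Cd8b1, which encodes the partner chain and lies 16819 bases away, had one of 3.48, while Rmnd5a, 18161 bases away, had one of -0.17. Gm44174 ends upstream of the start of Cd8a.

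Gm19585 (chromosome 17, 55752700 to 55766238, plus strand) read 1.81, 0.606, 0.447, 0.818 and 0.792 FPKM in control and 5.598, 6.05, 3.92 and 7.36 FPKM in diabetic samples. The lowest diabetic sample was above the highest control. The log2 fold change was 1.84 (SE 0.21, limma adjusted p = 0.00326) on 53 reads in control and 273 in diabetic samples, and the call held in all 9 fits that left out a sample. Only control 1 among the controls reached 1 FPKM, so Gm19585 met the threshold through its diabetic values. The 9 fits are thus no independent sign of stability for Gm19585. Its nearest coding gene is Satb1, 332872 bases away, a chromatin organizer of thymocytes with a log2 fold change of 1.55 (limma adjusted p = 0.0158). Both rises occurred beside a T cell marker sum of 451, 711, 229 and 649 FPKM in diabetic 1 to 4, and the part of T cell content in them was not tested.

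A pair of unnamed rows lies among the Ms4a genes of chromosome 19, a cluster of membrane proteins of leukocytes. MGP_C57BL6NJ_G0005943, a lincRNA row (8804787 to 8809446, minus strand), read 24.2, 26.9, 23.2, 36.9 and 26.7 FPKM in control and 58.3, 61.4, 59.4 and 66.3 FPKM in diabetic samples. The diabetic samples, diabetic 3 included, were close to each other and far above the controls. The log2 fold change was 1.14 (SE 0.13, limma adjusted p = 0.00326) on 1580 and 2854 reads. Ms4a8a, its nearest tested coding gene at 31922 bases, had a log2 fold change of 0.07, while 5 tested coding genes at 249925 to 497188 bases were higher. These were Cd6 (1.75) and Cd5 (1.68), which encode T cell surface receptors, and Ms4a4c (1.56), Ms4a4b (2.13) and Ms4a6b (1.12). The other tested coding genes up to that distance, the larger number, were not called. Among them were Slc15a3 (-0.51), Ms4a1 (0.31), Ms4a7 (-0.23), Ms4a4a (0.008) and Ms4a6c (0.27).

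MGP_C57BL6NJ_G0015775, a processed_transcript row spanning positions 9270950 to 9320652 as the table gives them, read 4.01 to 5.85 FPKM in control and 11.7, 11.9, 8.18 and 15.0 FPKM in diabetic samples. Its log2 fold change was 1.03 (SE 0.17, limma adjusted p = 0.0109). It overlaps Ms4a6b, Ms4a6c (0.27) and Ms4a4b on the opposite strand. The strand setting of the counting is not given in the sources used here, so reads of these genes and of the row cannot be told apart, as for every member that overlaps a coding gene.

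A pair of antisense rows was called higher with the coding gene on the other strand, and without the strand setting reads of row and gene cannot be told apart. 5830468F06Rik, antisense to Kbtbd11, read 0, 0.923, 0.190, 0.645 and 0.225 FPKM in control and 2.65, 4.24, 1.39 and 3.66 FPKM in diabetic samples, with a log2 fold change of 1.49 (SE 0.25, limma adjusted p = 0.0131). It too entered the set through the diabetic samples alone. Kbtbd11 on the opposite strand had a log2 fold change of 1.01 and was itself called. Gm13546, antisense to Cytip, which encodes a regulator of leukocyte adhesion, had a log2 fold change of 0.76, and Cytip had one of 0.65 and was called. The Gm13546 call held in 2 of the 9 fits that left out a sample. It was also lost with a pseudocount of 0.1, with TPM, with no filter and with a replicate block. In Gm13546 the groups overlapped, since diabetic 3 (1.19 FPKM) lay below control 3 (1.25 FPKM).

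Gm20506 lies in the MHC class II region, 4862 bases from H2-Ob. It read 1.78 to 3.48 FPKM in control and 6.48, 6.33, 3.56 and 10.3 FPKM in diabetic samples. Its log2 fold change was 0.99 (SE 0.24, limma adjusted p = 0.0429), and the call held in 1 of the 9 fits that left out a sample. It was also lost with no filter, with TPM, with voom and with a replicate block. H2-Ob, whose product modulates peptide loading in B cells, had a log2 fold change of 0.87 that did not pass, while its partner H2-Oa (1.06), the class II gene H2-Eb2 (0.91) and Tap1 (0.63), which encodes a class I peptide transporter subunit, were higher. The classical class II genes H2-Ab1 (-0.16), H2-Aa (0.10) and H2-Eb1 (-0.002) were not called. Of the other tested coding genes up to 488213 bases away, Slc39a7 (-0.82) was lower and the rest were not called.

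Other called members lay near coding genes that were not called or too low to be tested. Gm16341, an antisense row that overlaps Armc9, read 0, 0.360, 0, 0 and 0.988 FPKM in control and 1.86, 1.98, 3.34 and 3.23 FPKM in diabetic samples. It rested on 8 reads in control and 59 in diabetic samples, and its log2 fold change of 1.53 (SE 0.23, limma adjusted p = 0.00824) depends on the added 1 FPKM and on a row that entered the set through the diabetic samples alone. Armc9 itself was too low to be tested. A930024E05Rik (log2 fold change 0.92) is antisense to Kdm2b, which encodes a histone demethylase and had a log2 fold change of -0.11. It entered through the diabetic samples alone and read 0.609 to 0.751 FPKM in control and 2.28, 1.93, 1.29 and 3.48 FPKM in diabetic samples. Gm43291 (0.97), 23629 bases from Rpia (0.09), and A630023P12Rik (0.86), 20073 bases from Galnt9 (-0.35), also rose. The remaining rises, apart from Gas5, were those of A930005H10Rik, Gm28933, 1600020E01Rik, Gm26873, Gm43388 and 4930570N18Rik, with log2 fold changes of 0.48 to 0.81. All of these but A930005H10Rik, which held in 7, were called in 2 or 3 of the 9 fits that left out a sample.

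The largest falls were in low members. Gm16194, a lincRNA, read 3.84, 1.86, 5.64, 2.87 and 7.80 FPKM in control and 1.13, 0.546, 0.900 and 1.24 FPKM in diabetic samples. On 207 and 36 reads the log2 fold change was -1.37 (SE 0.29, limma adjusted p = 0.0280), a call that held in 4 of the 9 fits that left out a sample. The Gm16194 call was also lost with no filter and with a replicate block. Rab44, 3224 bases away on the same strand and a GTPase known from mast cells, had a log2 fold change of -1.47 that did not pass (limma adjusted p = 0.0733). Mast cell and basophil markers summed to 283 to 703 FPKM in control and 110 to 373 FPKM in diabetic samples with none of 5 tested genes called by limma or voom and 4 at an unadjusted p below 0.05, and their highest sample, control 4, had 2.87 FPKM of Gm16194. Eosinophil markers summed to 43.6, 15.2, 43.6, 20.8 and 53.2 FPKM in control 1 to 5 and to 8.56 to 17.8 FPKM in diabetic samples. Control 5 was highest and control 2 lowest for both Gm16194 and this sum. Neutrophil markers summed to 457, 77.8, 377, 70.3 and 1008 FPKM in control 1 to 5, so control 5 was highest there too, while control 4 was lowest. Of 3 tested eosinophil genes limma and voom called none, and 2 had an unadjusted p below 0.05. The part of these cell types in the Gm16194 result was not tested.

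Gm15569, an antisense row 79 bases from Cerk, which encodes ceramide kinase, read 4.77, 2.06, 4.36, 3.00 and 1.88 FPKM in control and 1.39, 0.570, 0.824 and 0.108 FPKM in diabetic samples. The log2 fold change was -1.29 (SE 0.26, limma adjusted p = 0.0247, held in 5 of 9 fits that left out a sample), and that of Cerk was -0.18. Bvht, known as Braveheart from cardiac lineage commitment, read 2.39, 3.01, 1.50, 2.14 and 2.49 FPKM in control and 1.001, 1.16, 0.5999 and 0.183 FPKM in diabetic samples. It rested on 121 and 31 reads, and its log2 fold change was -0.95 (limma adjusted p = 0.0237, held in 7 of 9 such fits). The Gm15569 and Bvht calls were also lost with no filter, and that of Bvht with a replicate block. In both rows the groups did not overlap.

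1700101I11Rik, a processed_transcript row (chromosome 6, 136700007 to 136701874, minus strand), was lower in diabetic samples. It read 2.62, 3.13, 2.74, 2.67 and 1.99 FPKM in control and 0.919, 1.12, 0.860 and 1.13 FPKM in diabetic samples. Its log2 fold change was -0.85 (SE 0.12, limma adjusted p = 0.00552) on 365 and 114 reads, and it is the 1 lower member called in all 9 fits that left out a sample. It overlaps Gabarapl1, an autophagy gene on the opposite strand that had a log2 fold change of -0.39 and was not called. Adap2os (-0.78, called in 3 of these 9 fits) overlaps Adap2 (-0.60), which did not pass. Gm20404 (-0.71, called in 8) overlaps Tmcc1 (-0.19) on the opposite strand. Gm38399 (-0.65, called in 2) overlaps Nav1 on the same strand (-0.27), and its call was also lost with no filter, with TPM and with voom. The Adap2os call was also lost with no filter, and the Gm20404 call with voom. With a replicate block the Adap2os, Gm20404 and Gm38399 calls were all lost. In these 4 pairs reads of the row and of the coding gene cannot be told apart.

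Across the 281 members whose nearest coding gene was tested, the log2 fold changes of member and neighbour had a Pearson r of 0.477 and a Spearman rho of 0.263, given as a description across genes that share libraries. The sign was the same for 158 (56.2%). In 136 members that lie apart from the coding gene r was 0.537 and rho 0.222. Among the 132 that overlap it on the opposite strand r was 0.380, and some reads may count for both rows, since the strand setting is not given. The nearest coding gene was called higher for 7 members, and 4 of these 7 were called higher themselves (Gm44174, Gm19585, 5830468F06Rik, Gm13546), against 2.68% of all genes tested. 5830468F06Rik entered the set through the diabetic samples alone, and Gm19585 through its diabetic values and control 1. 5830468F06Rik and Gm13546 overlap their coding gene, so reads of the 2 rows cannot be told apart. The nearest coding gene was called lower for 8 members. None of these was called by limma or voom (against 4.76% of all genes tested by limma), while 3 had an unadjusted p below 0.05. With an uncalled neighbour, 9 of 266 members were higher and 7 lower (6.02%, against 4.76% of all genes tested). Among these 9 was the unnamed G0015775, assigned to Ms4a6c although it also overlaps Ms4a6b (1.12) and Ms4a4b (2.13), which were called higher.

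**Figure D5:**
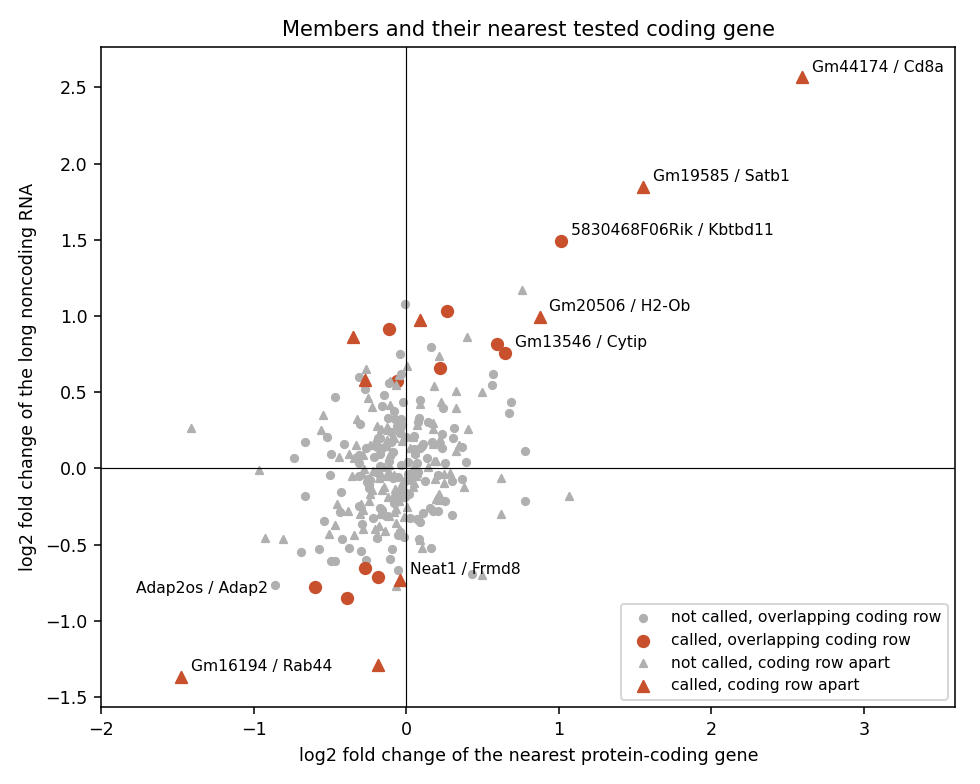
Log2 fold change of each member (vertical) against that of its nearest protein-coding gene where tested (horizontal), with circles for overlapping and triangles for separate pairs. Called members are red. Gm44174 with Cd8a, Gm19585 with Satb1 and 5830468F06Rik with Kbtbd11 lie at the upper right, and Gm16194 with Rab44 at the lower left.

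RefSeq promoter windows, 250 bases before to 50 bases after a start, were found for 12 called members. The windows of Gm19585 and Gm16341 are shown because they hold searched motifs, so finding motifs in them is no result. Both members were called in all 9 fits that left out a sample. Gm16341 entered the set through the diabetic samples alone, and Gm19585 through its diabetic values and control 1. For neither is this an independent sign of stability. Matches to the searched motifs are in capitals (build GRCm38.p6).
Gm19585 (chr17:52149039-52149338, plus strand): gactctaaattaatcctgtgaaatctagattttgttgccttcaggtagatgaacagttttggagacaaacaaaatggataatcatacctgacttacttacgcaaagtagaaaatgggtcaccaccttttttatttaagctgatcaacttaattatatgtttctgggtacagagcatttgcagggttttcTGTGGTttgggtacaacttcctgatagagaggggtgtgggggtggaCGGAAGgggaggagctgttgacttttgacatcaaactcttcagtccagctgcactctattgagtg
Gm16341 (chr1:86301721-86302020, minus strand): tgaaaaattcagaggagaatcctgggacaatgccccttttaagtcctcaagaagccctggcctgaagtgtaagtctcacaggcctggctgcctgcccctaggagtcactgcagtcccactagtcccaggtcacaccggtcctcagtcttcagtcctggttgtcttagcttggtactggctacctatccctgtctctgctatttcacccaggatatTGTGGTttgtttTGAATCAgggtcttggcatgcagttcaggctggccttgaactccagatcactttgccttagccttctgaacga

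The Gm19585 window holds TGTGGT, the core bound by RUNX factors, and CGGAAG, an ETS core. The Gm16341 window holds TGTGGT and the AP-1 element TGANTCA. On either strand TGTGGT occurred in 18.9% of 27025 genes with a window, 20.4% of 162 members and 3 of 12 called members. CGGAAG occurred in 18.8% of genes, 26.5% of members and 3 of 12 called members, and TGANTCA in 8.97%, 9.88% and 1 of 12. TGACGTCA (CRE) and CACGTG (E-box) occurred in 1 of 12 called members each, against 2.03% and 8.09% of genes. GAAANNGAA (IRF) and TATAAA occurred in none of the 12, against 9.76% and 15.7% of genes. The windows of A930024E05Rik and 1700101I11Rik, also called in all 9 fits, held none of these motifs. The 12 called members include Gm16341 and A930024E05Rik, which both entered the set through the diabetic samples alone.

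Of the members that did not pass, the largest log2 differences belonged to the unnamed row on chromosome 17 described above, Gm14133 (-1.12, SE 0.78) and Malat1 on the negative side. On the positive side they were an unnamed chromosome 7 row (1.17, limma adjusted p = 0.0648), Gm17066 (1.08) and Gm45050 (0.86). The chromosome 7 row read 3.87 to 8.36 FPKM in control and 16.9, 20.7, 6.64 and 18.2 FPKM in diabetic samples, so that diabetic 3 alone lay in the control range. Gm14133 read 18.2 to 94.3 FPKM in control and 2.86 to 49.8 FPKM in diabetic samples.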

How the data were processed

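RNA from the exudate cells of 9 samples (5 control, 4 diabetic) was sequenced with the SMARTer mRNA-seq kit, per the labels' protocols. The authors deposited 1 table of FPKM values per gene and sample, with GRCm38 and mm10 as builds in the submitters' processing notes. The gene identifiers are those of the C57BL/6NJ strain annotation, so positions are given as the table gives them and were not matched to a genome. No aligner, counter or strand setting is given in the sources used here. FPKM times gene length came out as whole multiples of 1 read's worth for 100% of values (within 0.05 reads), which gave the reads per row; all 9 columns were matched to samples by title.

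Values were tested as log2(FPKM + 1) with limma 3.58.1 (R 4.3.3; trend and robust moderation, two-sided) over 11193 genes with at least 1 FPKM in at least 4 samples, adjusted by Benjamini-Hochberg over all of them and called below 0.05. On simulated data 79 of 100 2-fold and 97 of 100 4-fold changes were recovered among 11193 genes. The changed genes were drawn from all genes tested, most of them coding genes, whose median level is above that of the members. These shares therefore do not give the recovery for members. The alternatives were a pseudocount of 0.1, other filters, TPM, quantile normalization, limma without trend, array weights, voom on the recovered reads, a replicate block and leaving out each sample. Members and lists were chosen with earlier results of these data known. The text names called members (the 10 largest rises and all falls, and those on role lists), the 10 most abundant members, members of role lists, the nearest coding genes, members at the threshold and uncalled members with the largest and smallest differences; the remaining called members are named beyond that rule, chosen after their values were seen. Sequences are from RefSeq tables (GRCm38.p6), matched by symbol.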

Additional observations from a re-analysis of the deposited data

Results flagged for a closer look

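In 7 of 96 groups of samples examined, 1 sample stood apart from the rest of its group, where chance gives about 1 in 20. Diabetic 3 was the sample apart for 1600020E01Rik, at 4.59 FPKM against 5.76 to 5.999 FPKM in the other diabetic samples, and for 4930455G09Rik, at 52.2 FPKM against 41.5 to 43.2 FPKM. Diabetic 4 stood apart for Mirt1, at 2.24 FPKM against 0.642 to 0.880 FPKM. Control 1 stood apart for Adap2os (2.22 FPKM against 3.11 to 3.34 FPKM) and for Gm19585 (1.81 FPKM against 0.447 to 0.818 FPKM). Control 4 stood apart for MGP_C57BL6NJ_G0005943, at 36.9 FPKM against 23.2 to 26.9 FPKM in the other controls. Control 2 stood apart for Mir142hg, at 88.9 FPKM against 127.6 to 139 FPKM.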

How the results depend on the processing

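The counts of calls depended on the samples used. With 18 members higher, 8 lower and 533 genes called, leaving out 1 sample gave 6 to 29 higher, 2 to 19 lower and 146 to 1170 genes, lowest without diabetic 4 and highest without diabetic 3. Without diabetic 2 the counts were 7, 2 and 185, without control 3 they were 11, 3 and 196, and without diabetic 1 they were 9, 5 and 287. Array weights gave 28, 22 and 1304, and all 22471 detected genes without a filter gave 8, 2 and 183. The replicate block over the 4 shared numbers gave 5, 2 and 62, with 7 of 26 calls kept. Those kept were Gm19585, the unnamed G0005943 and G0015775, Gm16341, 5830468F06Rik, 1700101I11Rik and Gm15569. The labels do not say whether the numbers pair the samples. Deviations of same-numbered samples from their group means had correlations of 0.0234, 0.156, -0.255 and -0.180, which cannot exclude pairing. The pseudocount of 0.1, the mean filter, TPM, quantile normalization, limma without trend and voom gave 12 to 21 higher and 7 to 9 lower members. The median log2 fold change of the members lay between -0.002 and 0.044. Small differences changed sign. Dleu2 was 0.0037 with a pseudocount of 0.1 and 0.0028 with voom, and -0.15 to 0.12 with 1 sample left out. Gm28875 was 0.029 with quantile normalization and 0.12 with array weights (-0.13 to 0.16 with 1 sample left out), and MGP_C57BL6NJ_G0005386 was 0.0034 with quantile normalization (-0.10 to 0.030). Gm14005 was 0.012 with the replicate block (-0.28 to 0.012). With 1 sample left out Snhg8 ranged from -0.077 to 0.41 and MGP_C57BL6NJ_G0016007 from -0.0035 to 0.070. The cause of these changes was not tested. Low members limit the precision: 3 called members had at most 100 reads over the 9 libraries.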
